A study of Homo sapiens with 24 samples.

Results

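The transcript response to interferon beta (IFN) after 12 h was followed in BOP1-depleted A549 cells, as the difference between 3 libraries from IFN-treated cells and 3 from mock-treated cells. The members are all genes with at least 1 TPM (an abundance corrected for transcript length and scaled to the same sum of 1000000 in each library) in at least 3 of these 6 libraries. This rule kept 14467 of the 60609 gene rows in the deposited table. Of these, 132 genes reached the rule through the IFN libraries alone and 74 through the mock libraries alone.

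A549 is an established human cell line from a lung adenocarcinoma. All 6 libraries come from cells given an siRNA pool against BOP1 (siBOP1) for 48 h, followed by 12 h with IFN (1000 U/mL) or with mock treatment. The series holds 24 libraries of polyadenylated RNA in 8 groups of 3, which cross siBOP1 or siFLuc (the control, an siRNA to firefly luciferase) with IFN or mock treatment and with 8 h or 12 h. The siFLuc groups at 12 h and the siBOP1 groups at 8 h serve below as points of comparison. Both arms of the main comparison carry the BOP1 siRNA, so it measures the IFN effect on that background, in 1 cell line. Libraries are called by the number at the end of their column name (1, 2 and 4), and values by library are given in that order.

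IFN beta binds the IFNAR1 and IFNAR2 receptor and activates the kinases JAK1 and TYK2, which phosphorylate STAT proteins. A complex of STAT proteins with IRF9 then binds the IFN-stimulated response element (ISRE), a DNA motif in the promoters of many antiviral genes. BOP1 acts with PES1 and WDR12 in the PeBoW complex, which is needed to mature the RNA of the large ribosomal subunit. Lung epithelial cells respond to IFN by raising proteins that sense viral RNA, block viral entry or translation and present antigen.

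The promoters of the most strongly raised genes are shown first because the letters of the ISRE core recur in them. Promoter sequences are those of RefSeq (GRCh38.p14), from 250 bases before to 50 bases after each transcription start. Among the 15 genes with the largest rises, 11 have an entry, and 9 of these hold the core (TTTC, any 2 bases, TTTC) on either strand. For each of the 9, 30 bases around 1 match are printed 5′ to 3′ in the direction of the gene, with the core in capitals (GAAA, any 2 bases, GAAA is the core on the opposite strand).
IFIT1: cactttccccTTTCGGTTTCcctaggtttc
IFI27: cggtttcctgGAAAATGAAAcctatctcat
MX1: ggtcactctgTTTCTCTTTCcgtgaataaa
ISG15: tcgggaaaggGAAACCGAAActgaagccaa
IFIT3: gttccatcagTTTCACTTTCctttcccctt
IFITM1: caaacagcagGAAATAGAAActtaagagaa
IFI6: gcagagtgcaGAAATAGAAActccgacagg
IFI44: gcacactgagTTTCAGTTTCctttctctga
BST2: ctgggaaactGAAACTGAAAacctaattaa
These stretches lie at chr10:89392510-89392539 (IFIT1), chr14:94110631-94110660 (IFI27), chr21:41431844-41431873 (MX1), chr1:1013380-1013409 (ISG15), chr10:89332468-89332497 (IFIT3), chr11:313990-314019 (IFITM1), chr1:27672266-27672295 (IFI6, minus strand), chr1:78649761-78649790 (IFI44) and chr19:17405735-17405764 (BST2, minus strand), on the plus strand where no strand is given. The windows of XAF1 and CMPK2 held no match to these letters. OAS2, IFIT2, OASL and TRIM22 complete the 15.

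The share of genes with the ISRE core in at least 1 of their promoter windows followed the size of the rise. In all 27305 genes with a promoter entry it was 4.38%, and in the described genes with an entry 3.97% (416 of 10483). It was 27.1% (90 of 332) among genes higher by at least 1 on the log2 scale, 63.6% (42 of 66) among those higher by at least 3 and 72.7% (16 of 22) among those higher by at least 5. Among genes that rose by less than 1 it was 9.56% (43 of 450), and among genes that passed no threshold 3.07% (269 of 8773). Among lowered genes it was 4.92% (3 of 61, falls of at least 1) and 1.38% (12 of 868, smaller falls). The gamma-activated sequence core (TTC, any 3 bases, GAA), the motif bound by STAT dimers, was more common in general (9.38% of all genes) and less spread by class. This core was held by 16.6% of genes higher by at least 1 (55 of 332) and by 8.24% of genes that passed no threshold (723 of 8773). Its share was 24.2% (16 of 66) for rises of at least 3 and 22.7% (5 of 22) for rises of at least 5. It was 13.6% (61 of 450) for rises under 1, 11.5% (7 of 61) for falls of at least 1 and 6.34% (55 of 868) for smaller falls. A gene with both cores counts under both, and the matches may overlap. These shares describe letters in the windows and not binding.

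The targeted transcript was low in all 6 libraries. BOP1 (ENSG00000261236.8, protein-coding) stood at 15.6, 15.4 and 13.7 TPM in the siBOP1 mock libraries and at 51.9, 59.2 and 78.8 TPM in the siFLuc mock libraries of the same time. The siBOP1 mean of 14.9 ± 1.05 TPM (SD, n = 3) was 23.5% of the control mean of 63.3 ± 13.9 TPM (SD, n = 3). Under IFN the siBOP1 libraries held 10.7, 10.0 and 12.5 TPM, and their mean of 11.1 ± 1.28 TPM (SD, n = 3) was 24.1% of the siFLuc mean. Groups did not overlap in either comparison, and each exact permutation test (two-sided) gave p = 0.1, the smallest that 3 against 3 libraries allow. IFN left BOP1 at 74.5% of its mock level in siBOP1 cells (log2 fold change -0.40, SE 0.18, limma adjusted p = 0.155). With the library number as a block, a term that removes what same-numbered libraries share, the adjusted p was 0.0479.

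The libraries held 14197 to 14486 genes at 1 TPM or more. TPM keeps no depth, so the depth of the libraries is unknown and counting error cannot be stated. Pearson r of log2(TPM + 1) across genes was 0.987 to 0.989 between the libraries numbered 1 and 2 of a group and 0.975 to 0.976 for pairs with the library numbered 4, so the libraries numbered 4 stood apart in both arms. Epithelial identity was clear for keratins, with KRT8 at 2372 to 2513 TPM in the mock libraries, KRT18 at 2024 to 2131 TPM and KRT7 at 1512 to 1582 TPM. Of 16 epithelial and alveolar markers, 5 stayed under 1 TPM in all 6 libraries. Of 12 leukocyte markers, 10 did and 5 of these were listed at 0. Likewise 7 of 10 fibroblast and 8 of 8 endothelial markers stayed under 1 TPM. Summed leukocyte marker levels were 6.25 to 7.51 TPM in mock and 4.87 to 5.44 TPM in IFN libraries.

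IFN raised 1105 of the 14467 genes (7.64%) and lowered 1199 (8.29%) at a limma adjusted p under 0.05. The rises were the larger changes. By at least 1 on the log2(TPM + 1) scale, 506 genes rose (3.5%) and 83 fell (0.574%). Rises reached at least 3 in 100 genes, at least 5 in 30 genes and at least 8 in 4 genes, whereas only 4 genes fell by at least 2. The median change was 0.93 among raised genes, -0.56 among lowered genes and -0.08 among all genes described. Every fold change below was computed from log2(TPM + 1), so the change of genes with low TPM is understated.

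The balance of rises and falls depended on the fit and on scaling. With the library number as a block, 1754 genes were higher and 2624 lower, and all 1105 raised and 1199 lowered genes of the fit without it were among them. These are 12.1% and 18.1% of the genes, the shares to set beside counts given with the block. For gene list counts without it, the shares are 7.64% higher and 8.29% lower. Median-of-ratios rescaling gave 1372 higher (9.48%) and 839 lower genes (5.8%), so that 62.1% of the called genes were higher against 48.0% without rescaling. Quantile normalization gave 8.4% higher and 11.7% lower, and the libraries numbered 1 and 2 alone gave 6.38% and 6.46%. Without any threshold on p, the 3 IFN libraries lay wholly above the 3 mock libraries for 1854 genes (12.8%) and wholly below them for 2921 (20.2%). Of the 1105 raised genes, 107 had reached the rule for members through the IFN libraries alone, and 998 remain without them. Such genes had to be higher to be described, and they number 1 to 4 in each of 13 gene lists below, most of them antiviral. Of the lowered genes, 28 had reached it through the mock libraries alone.

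Since TPM values of a library have a fixed sum, the rises can be given as a share of all transcripts. Genes higher by at least 1 held 1.24% to 1.27% of TPM in the mock libraries and 6.09% to 7.19% in the IFN libraries, lowest in the IFN library numbered 4. All lowered genes together went from 14.3% to 14.6% of TPM in mock to 10.0% to 10.9% in IFN libraries.

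**Figure D1:**
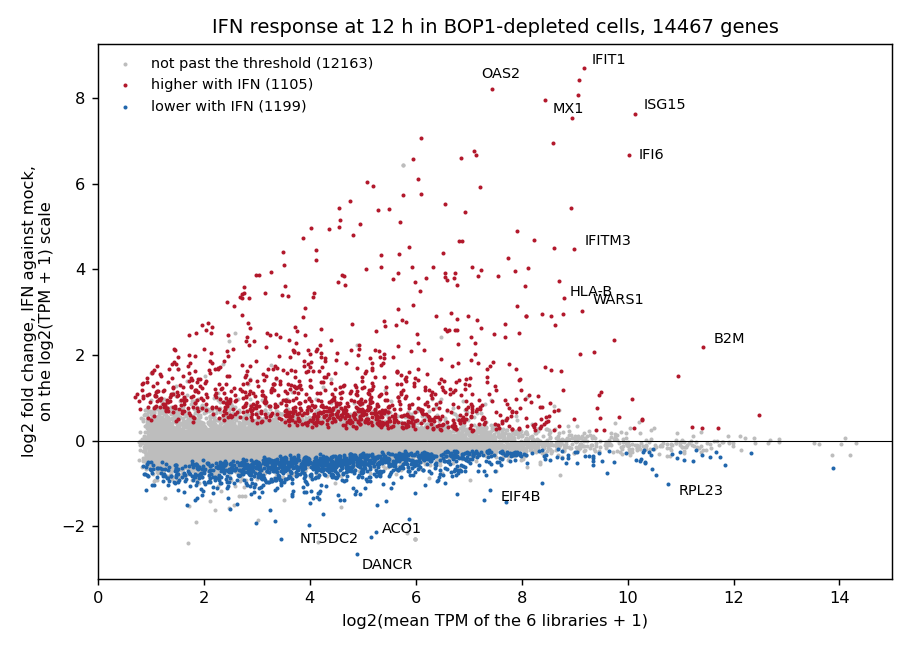
Each point is 1 of the 14467 genes, with the log2 of the mean TPM of the 6 libraries plus 1 on the x axis and the log2 fold change of IFN against mock on the y axis. Red points (1105) were higher and blue points (1199) lower at a limma adjusted p under 0.05, and the rises reach beyond 8 whereas the falls end above -3.

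The IFIT and OAS families gave the largest rises. IFIT proteins bind viral RNA and block its translation, and OAS enzymes make the 2-5A second messenger that activates RNase L. All 12 described genes of this list, which also holds double-stranded RNA effectors, rose, with a median of 5.06. IFIT1 (ENSG00000185745.10, chr10:89392546-89406486, plus strand, GENCODE 29 on GRCh38) stood at 2.13, 2.29 and 0.973 TPM in the mock libraries and at 1268, 1338 and 841 TPM in the IFN libraries. This rise, 8.69 ± 0.34 (SE) on the log2 scale with a limma adjusted p of 2.47e-14, was the largest of all genes called, and its promoter is the first of those printed above. OAS2 (chr12:112978395-113011723, plus strand) was nearly absent from mock cells, at 0.084, 0.284 and 0.137 TPM, and reached 319, 341 and 375 TPM with IFN (log2 fold change 8.21, SE 0.15, limma adjusted p = 1.42e-19).

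IFIT2 rose from 2.64, 2.57 and 3.32 TPM to 1137, 1316 and 738 TPM (8.08, limma adjusted p = 1.62e-15). IFIT3 rose from 5.08, 4.08 and 3.57 TPM to 1085, 1189 and 682 TPM (7.53, limma adjusted p = 9.08e-15). IFIT1, IFIT2 and IFIT3 were all lowest in the IFN library numbered 4, which OAS2 was not. OASL, an OAS relative without synthetase activity, went from 1.42, 1.38 and 1.73 TPM to 288, 281 and 248 TPM (6.77). How reads shared between such paralogs were assigned is not given in the sources used here, so values within the IFIT and OAS families are uncertain to that extent.

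Of 9 MX and GBP genes, the antiviral GTPases, 7 were described and rose (median 4.66), and 3 of the 7 reached the rule for members through the IFN libraries alone. MX1 (chr21:41420304-41459214, plus strand), a dynamin-like GTPase that traps viral nucleocapsids, rose from 2.47, 1.65 and 1.36 TPM to 701, 732 and 644 TPM (7.96, SE 0.19, limma adjusted p = 1.3e-17). MX2 went from 0.082, 0.278 and 0.128 TPM to 70.3, 77.7 and 64.5 TPM (5.95). Among the guanylate-binding proteins GBP4 rose by 5.60, GBP1 by 4.66 and GBP3 by 3.50, and GBP1 was the most abundant of these at 200.3 to 247 TPM under IFN.

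ISG15 is a ubiquitin-like protein that is coupled to other proteins, and all 5 described genes of its conjugation pathway rose (median 4.95). ISG15 itself (chr1:1001138-1014540, plus strand) went from 8.88, 11.7 and 10.3 TPM to 2514, 2465 and 1784 TPM, a 219-fold rise of the mean (log2 fold change 7.63, SE 0.24, limma adjusted p = 6.78e-16). Its E1 enzyme UBA7 rose by 4.95, its E2 enzyme UBE2L6 by 3.97 and its E3 ligase HERC5 by 5.12. UBE2L6 was already present in mock cells, at 24.0 to 32.9 TPM, and reached 410 to 478 TPM.

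Membrane and secretory effectors were also among the top genes. Of 9 described genes in the list with the IFITM proteins and tetherin, 8 rose (median 4.46). IFITM1, which restricts viral fusion, rose from 4.49, 7.94 and 3.48 TPM to 834, 895 and 559 TPM (6.95, SE 0.37, limma adjusted p = 4.84e-12). BST2 (tetherin), which holds budding virions at the cell surface, rose from 0.400, 1.67 and 0.758 TPM to 139, 145 and 103 TPM (6.10). Viperin (RSAD2) rose by 5.43 and its neighbour CMPK2, a nucleotide kinase, by 6.58, whereas IFITM3 started higher, at 40.7 to 46.2 TPM, and rose by 4.46 to 814 to 1074 TPM.

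In the group of IFI6, IFI27 and IFI44, 12 of 14 described genes rose (median 4.59). IFI27 (chr14:94104836-94116698, plus strand) had the second largest rise of all, from 1.31, 2.88 and 2.495 TPM to 1197, 1057 and 966 TPM (8.41, SE 0.28, limma adjusted p = 1.62e-15). IFI6 rose from 17.2, 21.6 and 18.6 TPM to 2224, 2152 and 1779 TPM, 107-fold by the means (6.67). XAF1, a pro-apoptotic partner of XIAP, was listed at 0 in the mock libraries numbered 1 and 4 and at 0.056 TPM in that numbered 2, and stood at 122, 139 and 147 TPM with IFN (7.07). These 15 largest rises were chosen among genes whose mock and IFN libraries did not overlap. The IFN library numbered 4 was the lowest of the IFN libraries in 12 of the 15 and the highest in the other 3, OAS2, XAF1 and CMPK2.

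**Figure D2:**
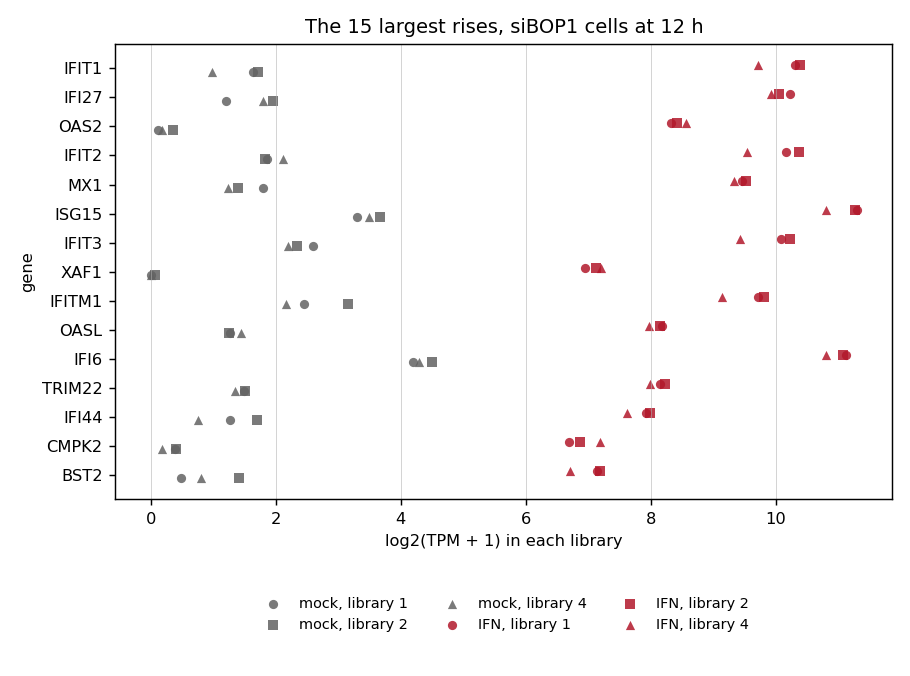
The log2(TPM + 1) level of the 15 genes with the largest rises is shown in each of the 6 libraries, with mock libraries in grey, IFN libraries in red and the library number by symbol (circle 1, square 2, triangle 4). The genes were chosen for arms that do not overlap, so the gap between red and grey is no result, and the red triangle is the leftmost red symbol in 12 of the 15 genes.

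The signalling pathway itself rose in part. Of 15 described genes for the IFN receptor and JAK-STAT signalling 8 rose, with a median of 0.52 against -0.08 for all genes. STAT2, which pairs with IRF9 in the complex that binds the ISRE, went from 12.1, 12.7 and 12.2 TPM to 175, 203 and 156 TPM (3.74, SE 0.16, limma adjusted p = 1.11e-13). IRF9 went from 23.0, 22.7 and 38.6 TPM to 166, 155 and 186 TPM (2.58). Other members rose less, JAK2 by 1.40 and STAT6 by 1.18. With the block on the library number, 10 of the 15 were higher and 2 lower.

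Among IFN regulatory factors, 4 of 8 described genes rose. IRF7, which amplifies IFN production, had the largest change, from 3.31, 3.505 and 4.77 TPM to 284, 313 and 280 TPM (5.92, SE 0.16, limma adjusted p = 6.65e-17). IRF1 rose by 2.63 and IRF2, which counters it at shared sites, by 1.70. Of 16 described negative regulators USP18 and SOCS1 rose and 2 genes fell, while with the block 3 rose and 4 fell. After median-of-ratios rescaling 3 rose and 1 fell. Among all genes 7.64% rose and 8.29% fell (12.1% and 18.1% with the block). USP18, which removes ISG15 and restrains the receptor, rose from 7.87, 6.60 and 7.49 TPM to 159, 161 and 199.7 TPM (4.39), and SOCS1 rose by 3.61. PTPN11, a phosphatase that dampens the pathway, fell by 0.55. Among the IFN genes themselves, IFNE was the 1 of 6 in the list that was described, at 2.36 to 3.70 TPM in mock and 3.01 to 9.48 TPM in IFN libraries (limma adjusted p = 0.363, and 0.0387 with the block).

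Sensors of foreign nucleic acid rose in 13 of 17 described genes (14 with the block), with none lower and a median of 2.10. The RNA sensor RIGI went from 4.33, 4.06 and 6.59 TPM to 229, 251 and 235 TPM (5.34, SE 0.16, limma adjusted p = 2.98e-16). IFIH1 (MDA5), its relative for long double-stranded RNA, went from 2.61, 3.70 and 2.77 TPM to 165, 188 and 194 TPM (5.51). The endosomal receptor TLR3 rose by 3.86, the DNA sensor IFI16 by 3.80, the regulator DHX58 by 3.45 and the adaptor MYD88 by 2.55.

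All 14 described TRIM and nuclear body genes rose, with a median of 2.66. TRIM22, a restriction factor of the TRIM family, went from 1.82, 1.84 and 1.55 TPM to 282, 298 and 254 TPM (6.67, SE 0.21, limma adjusted p = 7.63e-16). SP110 rose by 4.05, PML by 3.08, SP100 by 2.97, TRIM5 by 2.81 and TRIM25, the ligase that activates RIGI, by 2.41. Of 10 described PARP genes and DTX3L, 7 rose (median 2.35), led by PARP10 from 0.926, 0.663 and 0.824 TPM to 63.0, 81.0 and 80.9 TPM (5.39). PARP9 and its partner DTX3L rose by 3.81 and 3.17. Both SAMD9 (4.51) and SAMD9L (5.07) rose, as did SLFN5 (1.76) among the Schlafen genes. Of 9 described APOBEC3 and APOL genes 7 rose, and APOL1 (4.27) and APOL2 (2.51) were lower in the library numbered 4 in both arms, at 13.6 and 46.5 TPM in mock and 258 and 254 TPM with IFN.

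Antigen presentation rose as a group. All 8 described genes of HLA class I, with the light chain B2M and the regulator NLRC5, were higher (median 2.93). HLA-B went from 54.3, 61.8 and 54.7 TPM to 843, 863 and 617 TPM (3.73, SE 0.21, limma adjusted p = 1.3e-11). HLA-F rose by 4.06, HLA-E by 3.15 and HLA-C by 2.71. B2M (chr15:44711487-44718877, plus strand) started at 1026, 996 and 944 TPM and reached 4681, 4522 and 4346 TPM (2.19), and the groups did not overlap. NLRC5, which drives transcription of the class I genes, rose by 3.78. HLA genes are near-identical copies of each other, and their separate values carry the same reservation as the IFIT family.

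Peptide supply followed, with rises in 12 of 14 genes of the immunoproteasome and peptide loading (median 1.91). PSMB9, an inducible catalytic subunit, went from 13.8, 16.6 and 12.4 TPM to 269, 249.6 and 230.3 TPM (4.05), and PSMB8 and PSMB10 rose by 2.81 and 2.29. The peptide transporter subunits TAP1 and TAP2 rose by 3.84 and 3.64. CANX, a chaperone of the same list, did not pass. Constitutive proteasome genes rose in 7 of 14 and fell in 1 (4 under quantile normalization), to a smaller extent, with PSMA4 at 1.07, PSMA2 at 0.90 and PSMA6 at 0.87. Of 10 HLA class II genes, 6 stayed under 1 TPM in all 6 libraries and 3 were described, of which 1 rose and 1 fell. CD74, the class II invariant chain, went from 0.043, 0.554 and 0.106 TPM to 3.96, 4.66 and 11.2 TPM (2.53), and was highest in the IFN library numbered 4. HLA-DMB, a chaperone of class II peptide loading, fell from 12.8, 15.2 and 16.0 TPM to 7.78, 8.90 and 11.5 TPM (-0.60, limma adjusted p = 0.0437). That call was lost without any 1 of 5 of the 6 libraries (limma adjusted p up to 0.18) and after median-of-ratios rescaling (0.0759).

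The chemokine and cytokine list held genes nearly absent from mock cells and genes already abundant there. Of its 21 described genes, 4 reached the rule for members through the IFN libraries alone, so these had to be higher. In all 12 of 21 described genes rose and 1 fell, and with the block 16 rose and 1 fell. CXCL10, a T cell attractant, went from 0.067, 0.067 and 0.058 TPM to 14.0, 15.3 and 14.0 TPM (3.86), and CXCL11 was listed at 0 in all 3 mock libraries and stood at 12.6, 12.4 and 16.3 TPM with IFN. TNFSF10 (TRAIL), a death ligand, rose from 1.35, 1.43 and 1.61 TPM to 148, 148 and 104 TPM (5.75, SE 0.25, limma adjusted p = 1.09e-13). TNFSF13B (BAFF) rose by 4.10 and CCL5 by 3.37. The neutrophil attractant CXCL5 was at 971, 1055 and 1053 TPM in mock cells and at 1438, 1543 and 1347 TPM with IFN (0.49). CXCL8 was at 232, 209.5 and 433 TPM in mock and 461, 485 and 509 TPM in IFN libraries, and did not pass (0.81, limma adjusted p = 0.17), nor did CXCL1 (0.35). With the block both passed (adjusted p = 0.00195 and 0.0355).

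In the list of death receptors and apoptosis 14 of 21 genes rose and 1 fell. The inflammatory caspases CASP1 and CASP4 rose by 4.21 and 1.63, the necroptosis effector MLKL by 1.92 and the inhibitor BIRC3 by 1.82. The fall was TNFRSF10D, a decoy receptor for TRAIL, from 24.6, 27.2 and 21.3 TPM to 4.83, 5.57 and 6.08 TPM (-1.96, SE 0.24, limma adjusted p = 2.99e-06). Thus the ligand TNFSF10 rose and its decoy receptor fell in the same libraries.

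Ligands of immune checkpoints rose in 8 of 10 described genes (median 2.07). LGALS9 (galectin 9) went from 0.653, 0.655 and 1.80 TPM to 106, 113 and 95.5 TPM (5.74, SE 0.19, limma adjusted p = 1.14e-15). The tryptophan-degrading enzyme IDO1 was listed at 0 in all mock libraries and stood at 71.1, 70.1 and 55.6 TPM with IFN. The butyrophilins BTN3A3 and BTN3A1 rose by 2.56 and 2.35 and NECTIN2 by 1.30, whereas the level of PVR was 71.8 to 82.4 TPM in mock and 51.8 to 65.9 TPM in IFN libraries (limma adjusted p = 0.114, and 0.00827 with the block).

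Complement genes rose in 8 of 17, beside 7.64% of all genes higher, and in 9 with the block, against 12.1%. SERPING1, the C1 inhibitor, had the largest change (3.35), followed by factor B (CFB, 2.43), the protease C1R (1.68), C4B (1.64) and the protease C1S (1.42). C4B has a near-identical copy, C4A, so its value is uncertain. C3, the central component, went from 196, 162 and 165 TPM to 442, 468 and 211 TPM and did not pass (1.01, limma adjusted p = 0.0709). It passed with the block (adjusted p = 0.000116) and without the IFN library numbered 4 (1.38, adjusted p = 0.0168), which was well under the others. NF-kB subunits and inhibitors passed in 2 of 11 genes, RELA at 0.71 and NFKBIZ at 0.94, beside 7.64% of all genes higher. With the block on the library number 8 of 11 passed, against 12.1%. NFKBIZ lost the call without any 1 of 4 libraries (limma adjusted p up to 0.145, without IFN library 2).

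The most abundant raised genes were mostly not antiviral effectors. By IFN level, TMSB10, a thymosin that binds actin, was first, with 4561, 4607 and 4500 TPM in mock and 7250, 6889 and 6499 TPM in IFN libraries (0.59, SE 0.10, limma adjusted p = 0.000261). B2M came next, followed by the glycolytic enzyme PKM (0.29), KRT8 (0.30) and the metallothionein MT2A. MT2A went from 1268, 1099.8 and 731 TPM to 3274, 3255 and 2243 TPM (1.52, SE 0.25). Thioredoxin (TXN, 0.31), ISG15, IFI6, osteopontin (SPP1, 0.50) and CXCL5 complete the 10. The calls of 3 of these were marginal when each of the 6 libraries was left out in turn. TXN lost its call in all 6 of these fits, KRT8 in 5 and PKM in 3 (limma adjusted p up to 0.126, 0.121 and 0.0995). ISG15 and IFI6 thus stood among keratins and glycolytic enzymes in abundance under IFN.

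Tryptophan and nicotinamide metabolism rose in 5 of 10 genes, with no falls. Beside IDO1 these were the tryptophanyl-tRNA synthetase WARS1, NAMPT, KMO and KYNU. WARS1 went from 121, 108 and 134 TPM to 1008, 1148 and 847 TPM (3.03, SE 0.14, limma adjusted p = 3.77e-13). Among 20 tRNA synthetases it was the 1 that rose, while 3 fell. With the block 2 of the 20 rose and 6 fell, and after median-of-ratios rescaling 2 rose and 4 fell. NAMPT, the rate-limiting enzyme of NAD salvage, rose by 1.17. In polyamine metabolism 2 of 12 genes rose and 5 fell, beside 7.64% and 8.29% of all genes. SAT1, which acetylates polyamines for export and breakdown, rose by 0.98, whereas the synthetic enzymes ODC1, SRM (-0.47) and AMD1 (-0.45) fell. ODC1 stood at 82.7, 69.8 and 109 TPM in mock and at 17.2, 14.2 and 51.0 TPM in IFN libraries (-1.83, SE 0.38, limma adjusted p = 0.0018), so its library numbered 4 fell least. When the fit held just the 2 arms compared, ODC1, SRM and AMD1 did not pass (limma adjusted p = 0.0538, 0.0682 and 0.0651). SRM and AMD1 lost the call without IFN library 1 (limma adjusted p = 0.0611 and 0.0996), and AMD1 also without any 1 of 3 others.

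Hypoxia and glycolysis genes lay above 0 in 30 of 33, with a median of 0.24, and 4 passed. HK2, a hexokinase, went from 1.51, 1.42 and 0.543 TPM to 8.74, 9.80 and 3.21 TPM (1.86), and ADM rose by 1.18. The change between same-numbered libraries had a median over the list of 0.31, 0.36 and 0.00 for the numbers 1, 2 and 4, and was smallest in number 4 for 27 of the 33 genes. CA9, a marker of hypoxia, was at 8.53, 7.68 and 6.34 TPM in mock and at 19.0, 18.6 and 6.35 TPM in IFN libraries (limma adjusted p = 0.234, 0.025 with the block, and 0.0357 without the IFN library numbered 4). The 4 of 33 stand against 7.64% of all genes higher, and 14 of the 33 with the block against 12.1%. Cholesterol synthesis and uptake had 6 of 25 genes lower, beside 8.29% of all genes, and 1 higher, namely STARD4 (1.54), a sterol carrier. Both with the block and under quantile normalization 10 were lower, against 18.1% and 11.7% of all genes. After median-of-ratios rescaling 4 were lower and 2 higher, and with the libraries numbered 1 and 2 alone 3 were lower.

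Falls were fewer among the large changes and started from moderate levels. In RNA from whole cultures, fewer cells of a type and less RNA per cell cannot be told apart, which applies to every fall given here. DANCR (ENSG00000226950.7, chr4:52712404-52720351, plus strand), a long non-coding RNA that hosts small nucleolar RNAs, had the largest named fall, from 52.99, 53.6 and 43.3 TPM to 7.83, 6.53 and 6.86 TPM. The IFN mean of 7.07 ± 0.67 TPM (SD, n = 3) was 14.2% of the mock mean of 49.9 ± 5.78 TPM (SD, n = 3), and limma gave -2.65 ± 0.18 (SE) on the log2 scale with an adjusted p of 3.36e-10. ACO1 (chr9:32384603-32454769, plus strand), which is either cytosolic aconitase or the iron-regulatory protein IRP1, fell from 60.6, 66.8 and 54.9 TPM to 13.4, 13.7 and 12.1 TPM (-2.13, SE 0.10, limma adjusted p = 9.65e-13). Both genes were chosen among called genes whose arms did not overlap, so the gap between their arms is no result.

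ATPSCKMT, a methyltransferase that acts on a subunit of mitochondrial ATP synthase, fell from 16.1, 17.6 and 17.7 TPM to 2.32, 2.59 and 3.30 TPM (-2.29, limma adjusted p = 4.07e-09). NT5DC2 (chr3:52524385-52535054, minus strand) fell from 56.7, 57.3 and 60.1 TPM to 10.9, 11.8 and 11.6 TPM (-2.25, limma adjusted p = 1.03e-09). Both kept less than 20% of their mock level. FAM171A1 (-1.92), RFLNB (-1.87), CMTM4 (-1.71), which stabilises PD-L1 protein, and the ceramide kinase CERK (-1.46) also fell. TIMM21, a subunit of the mitochondrial import machinery, fell by 1.51 and GPATCH11 by 1.59. The non-coding RNAs ZNF232-AS1 (-1.62), LINC03011 (-1.48) and BCYRN1 (-1.44) also fell. BCYRN1, a short RNA transcribed by RNA polymerase III, varied widely in mock cells, at 411, 313 and 194 TPM, and stood at 105, 104 and 114 TPM with IFN. The 15 largest falls, which include TNFRSF10D and ODC1, were likewise chosen among genes whose arms did not overlap.

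**Figure D3:**
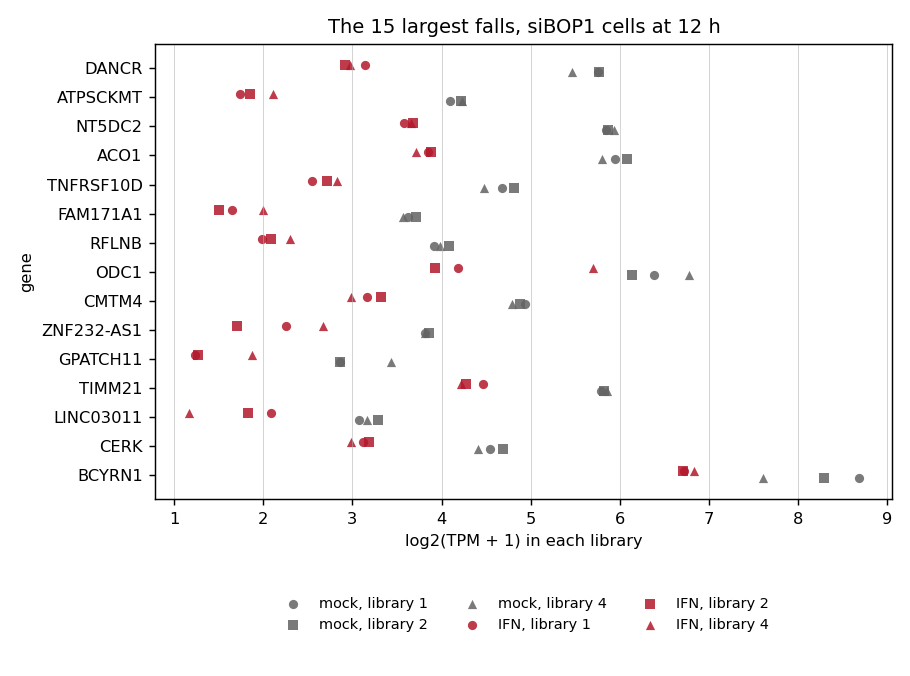
The log2(TPM + 1) level of the 15 genes with the largest falls is shown in each of the 6 libraries, with the same colours and symbols as for the rises. These genes too were chosen for arms that do not overlap, and ODC1 has the widest IFN spread, with the library numbered 4 at 51.0 TPM against 17.2 and 14.2 TPM.

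DANCR was not the only host of small nucleolar RNAs that fell. In a list of 17 such hosts and other small lncRNAs 5 were lower and 1 was higher, with a median of -0.34 against -0.08 for all genes. With the block 7 were lower and 1 was higher. Among all genes 8.29% were lower, and 18.1% with the block. SNHG7 fell by 0.67, SNHG8 by 0.55, SNHG5 by 0.51 and SNHG29 by 0.35, and SNHG12 rose by 0.69. SNHG12 lost the call without the mock library numbered 4 or IFN library 1 (limma adjusted p = 0.151 and 0.127), and SNHG29 after median-of-ratios rescaling (0.0589). Several of these RNAs carry 5′ terminal oligopyrimidine tracts, as ribosomal protein transcripts do.

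Transcripts of the translation machinery were lowered in part and by small amounts. Of 43 described translation factors 13 fell and none rose, with a median of -0.16 against -0.08 for all genes, of which 8.29% fell. With the block 17 fell and 2 rose, against 18.1% and 12.1% of all genes. Under quantile normalization 17 fell, against 11.7%. After median-of-ratios rescaling 8 of the 43 fell, against 5.8%, and the median was -0.09. EIF4B, a cofactor of the helicase that prepares transcripts for initiation, fell from 236, 231 and 234 TPM to 101, 96.6 and 115 TPM (-1.16, SE 0.09, limma adjusted p = 6.68e-09). EIF3L, a subunit of the eIF3 complex, fell from 489, 458 and 384 TPM to 221, 203 and 244 TPM (-0.99, limma adjusted p = 7.37e-08). EEF1B2 fell by 0.57 and the abundant elongation factor EEF1A1 by 0.28, from 5566 to 5767 TPM in mock to 4508 to 4755 TPM in IFN libraries, a fall that did not pass after median-of-ratios rescaling (limma adjusted p = 0.162). EIF4A1, the helicase, passed as a rise only with the block (0.19, adjusted p = 0.015).

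Ribosomal protein genes fell in 12 of 47 for the large subunit (median -0.12) and 8 of 32 for the small subunit (median -0.17), and none rose. After rescaling by median of ratios 6 and 4 fell, and the medians were -0.05 and -0.09. With the block 16 and 11 fell. RPL23 stood out with 2472, 2348 and 2137 TPM in mock and 1127, 990.3 and 1333 TPM in IFN libraries (-1.02, SE 0.13, limma adjusted p = 6.48e-06). RPL6 fell by 0.81, RPL5 by 0.75 and RPS7 by 0.65, while the still more abundant RPL41 and RPS19 did not pass. Summed over the large subunit, ribosomal protein transcripts went from 90708 to 92145 TPM in mock to 76656 to 85024 TPM in IFN libraries. Many pseudogenes resemble these genes, and how their reads were assigned is not given in the sources used here. Of 77 mitochondrial ribosomal protein genes 10 fell and 3 rose, while 29 fell with the block, 27 under quantile normalization and 6 after median-of-ratios rescaling. Among all genes 8.29% fell and 7.64% rose, and 18.1% fell with the block.

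Ribosome assembly factors changed little. None of the 3 PeBoW genes passed, with PES1 at 76.5, 71.7 and 60.9 TPM in mock and 66.3, 64.0 and 72.3 TPM in IFN libraries and WDR12 at 45.0, 41.7 and 33.3 TPM against 29.1, 26.2 and 38.9 TPM. Without the IFN library numbered 4 WDR12 passed (-0.51, limma adjusted p = 0.0474). Of 47 large subunit assembly factors 4 fell, a share near the 8.29% of all genes, and none rose (median -0.15). They include RPF2 (-0.57), NIFK (-0.49) and EBNA1BP2 (-0.48). With the block 15 fell, against 18.1% of all genes, and 3 rose, after median-of-ratios rescaling 2 fell and 3 rose, and under quantile normalization 9 fell and 3 rose. Of 49 genes of the small subunit processome DCAF13 alone fell (-0.67), while 3 did with the block and 4 under quantile normalization. The median of that list was -0.06, and 0.01 after median-of-ratios rescaling, so its sign depended on scaling. RNA polymerase I machinery fell in 2 of 17 genes, POLR1E (-0.68) and POLR1G (-0.61), and in 5 with the block. The 2 of 17 lie near the 8.29% of all genes lower, and the 5 with the block stand against 18.1%. Several single libraries decided these calls, and without IFN library 2 the named falls of RPF2, EBNA1BP2, POLR1E and POLR1G did not pass (limma adjusted p = 0.255, 0.108, 0.155 and 0.165), nor did NIFK without mock library 1 (0.0827). For the small subunit list the median change was -0.15, -0.12 and 0.12 in the numbers 1, 2 and 4.

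Cell cycle genes lay mostly below 0, and the size depended on the library. Of 31 genes of G2 and mitosis 30 lay below 0, with a median of -0.63 against -0.08 for all genes. In this list 8 passed, beside 8.29% of all genes lower. TOP2A, which untangles chromosomes, went from 145, 126 and 120.4 TPM to 76.7, 62.7 and 79.4 TPM (-0.83, limma adjusted p = 0.00425). The mitotic kinase PLK1 went from 58.5, 55.2 and 38.1 TPM to 30.1, 22.5 and 31.0 TPM (-0.83, adjusted p = 0.0361). CENPA (-0.85) and BUB1B (-0.80) also passed, whereas CCNB1 did not (-0.62, limma adjusted p = 0.0999, 0.00885 with the block, and 0.0327 without the mock library numbered 4). PLK1, CENPA and BUB1B lost the call without any 1 of several libraries, with the highest p without IFN library 2 (limma adjusted p = 0.163, 0.134 and 0.195). The median change of the list between same-numbered libraries was -0.80, -0.96 and -0.13 for the numbers 1, 2 and 4, and it was nearest to a rise in number 4 for 29 of the 31 genes. With the block 27 passed, against 18.1% of all genes lower. With the libraries numbered 1 and 2 alone 14 did, against 6.46%. After median-of-ratios rescaling 4 did, against 5.8%, and under quantile normalization 15 did, against 11.7%.

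DNA replication and S phase genes showed the same split. In that list 34 of 36 lay below 0 (median -0.35) and 4 passed. With the block 21 did, and 8 did both under quantile normalization and with the libraries numbered 1 and 2 alone. The 4 of 36 lie near the 8.29% of all genes lower, and the 21 with the block stand against 18.1%. PRIM1 fell by 0.75, UHRF1 by 0.71, MCM6 by 0.69 and GINS2 by 0.68, while PCNA, the sliding clamp, did not pass (-0.13). PRIM1, MCM6 and GINS2 also lost the call without any 1 of several libraries, again with the highest p without IFN library 2 (limma adjusted p = 0.173, 0.0971 and 0.192). Its medians by library number were -0.45, -0.53 and -0.01. In the MYC and MAX network of 10 genes MXD3 fell by 1.35 and MAX rose by 0.61, and MAX lost the call without IFN library 2 (adjusted p = 0.056).

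Stress pathways moved in few genes. The shares to set beside their counts are 7.64% of all genes higher and 8.29% lower, or 12.1% and 18.1% with the block. Of 25 p53 targets 2 rose, FAS (0.78) and PMAIP1 (1.29), and 4 fell, among them ZMAT3 (-1.10) and TP53I3 (-0.49), and with the block 4 rose and 10 fell. PMAIP1 lost the call without any 1 of 3 libraries (limma adjusted p up to 0.115, without mock library 1). GDF15, a stress-responsive cytokine, was at 40.1, 46.7 and 276 TPM in mock and 62.7, 57.9 and 257 TPM in IFN libraries, so the library number separated its values far more than IFN did. ATF3 was also highest in number 4 in both arms, at 0.855, 1.19 and 8.69 TPM against 6.86, 5.27 and 15.2 TPM (limma adjusted p = 0.206, and 0.00632 with the block). Of 19 genes of the integrated stress response CEBPB rose (0.70) and 1 fell, and with the block 4 rose and 3 fell. Chaperones of the endoplasmic reticulum rose in 4 of 18, in 8 with the block and in 7 after median-of-ratios rescaling, but in none under quantile normalization. Heat shock genes rose in 1 of 14, DNAJA1 (0.79), and fell in 1, HSPE1 (-0.36), whose fall did not pass after median-of-ratios rescaling (adjusted p = 0.0843). None of the 13 mitochondrially encoded genes passed, and their share of TPM was 12.1% to 15.9% in mock and 12.2% to 14.1% in IFN libraries, lowest in number 4 in both arms.

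**Figure D4:**
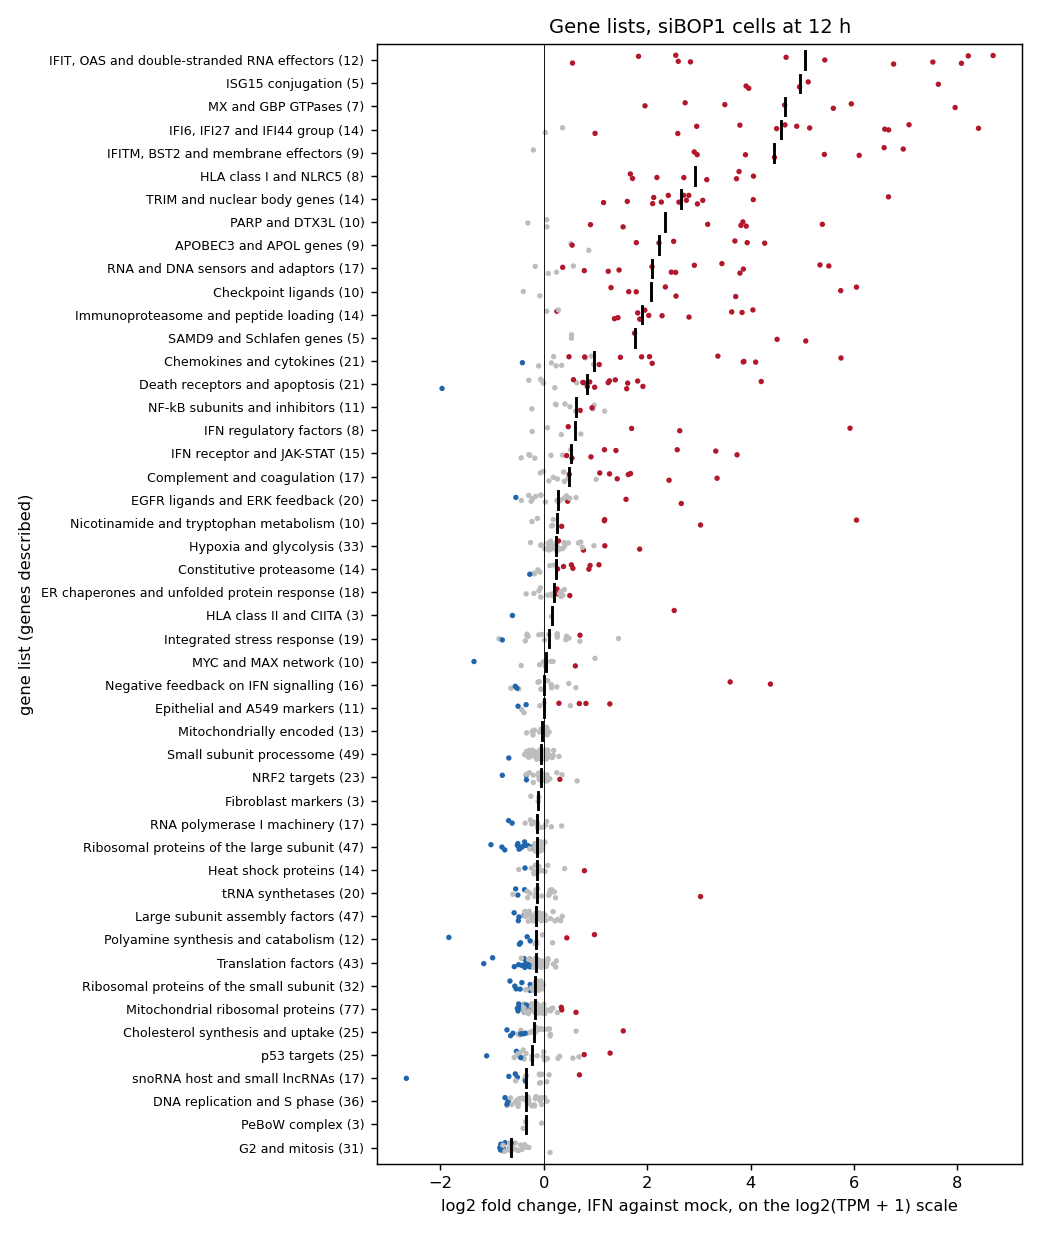
Each row is a gene list with the number of its genes described, each point is the log2 fold change of 1 gene (red higher, blue lower at a limma adjusted p under 0.05, grey neither), and the black bar is the list's median. Medians of the antiviral lists run up to 5.06, whereas those of ribosome, translation and cell cycle lists lie between 0 and -0.63.

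The same response was then set beside that of control siRNA cells at 12 h, which asks whether BOP1 depletion altered it. Of the 506 genes higher by at least 1 in siBOP1 cells, 477 were also called higher in siFLuc cells, where 7.56% of the 14467 genes were called higher, and the median change of the 506 was 1.66 in siBOP1 and 1.62 in siFLuc cells. Of the 83 genes lower by at least 1, 68 were called lower in siFLuc cells (6.94% of all genes), with medians of -1.20 and -1.05. These genes were chosen for their change in siBOP1 cells, which favours a larger value there.

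The test of the difference itself, the siRNA by IFN interaction at 12 h, passed in none of the 14467 genes (limma, lowest adjusted p = 1), and 202 genes had an unadjusted p under 0.05. The median standard error of the interaction was 0.25. For IFIT1 the interaction was 0.30 (SE 0.49), for ISG15 0.27 (SE 0.34), for MX1 -0.35 (SE 0.27), for DANCR 0.05 (SE 0.26) and for ACO1 0.04 (SE 0.15). Among the 15 largest falls, it ranged from -0.63 (ZNF232-AS1, SE 0.28) to 0.43 (BCYRN1, SE 0.39), and NT5DC2 had -0.58 (SE 0.23). Its median was 0.04 over the 506 raised genes and -0.19 over the 83 lowered genes, both chosen in siBOP1 cells. The smallest unadjusted p belonged to PCDHGC3, a protocadherin, with -0.21 in siBOP1 and 0.85 in siFLuc cells (interaction -1.05, SE 0.23). At this precision no gene's response was shown to differ between the siRNAs, which does not show that the responses were equal.

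At 8 h the siBOP1 cells had given 920 higher (6.36%) and 1430 lower (9.88%) genes of the 14467. Of the 506 genes, 468 were already higher at 8 h, with a median of 1.62, and 224 had a larger change at 8 h than at 12 h. Of the 83 lowered genes, 62 were called lower at 8 h, with a median of -0.87, and 64 had the larger fall at 12 h, again among genes chosen at 12 h. The time by IFN interaction passed in none of the 14467 genes (limma, lowest adjusted p = 0.116), and 540 had an unadjusted p under 0.05. With the block on the library number 4 genes passed.

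EPSTI1 and ACO1 had the lowest adjusted p for time. EPSTI1, an epithelial-stromal interaction gene, changed by 2.41 at 8 h and 0.99 at 12 h (interaction -1.42, SE 0.24), at a level of 4.69 TPM under IFN at 8 h and 1.39 TPM at 12 h. ACO1 changed by -1.29 at 8 h and -2.13 at 12 h (interaction -0.84, SE 0.15, limma adjusted p = 0.116), with 22.7 TPM left under IFN at 8 h and 13.1 TPM at 12 h. With the block both passed (adjusted p = 0.0325 and 0.00238), as did RPL3 (interaction -0.45, adjusted p = 0.00823). RPL3 stood at 1548, 1552 and 1437 TPM in mock and 1084, 1051 and 1075 TPM in IFN libraries at 12 h. B2M changed by 1.73 at 8 h and 2.19 at 12 h, and TDRD7 by 3.22 and 2.67, without passing.

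**Figure D5:**
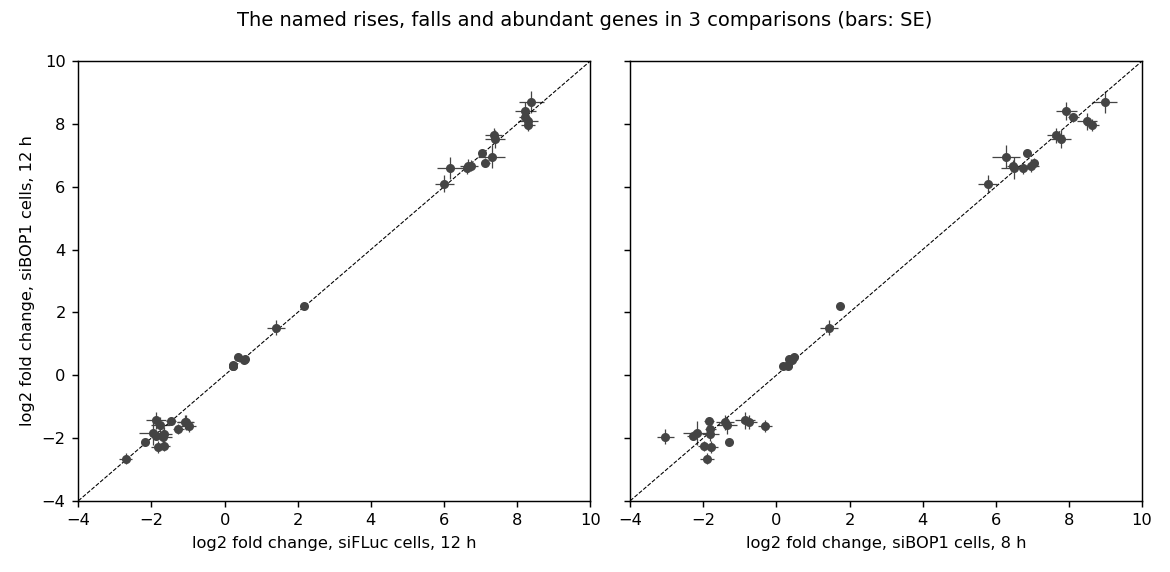
The log2 fold change at 12 h in siBOP1 cells (y axis) is plotted against that in siFLuc cells at 12 h (left) and in siBOP1 cells at 8 h (right) for the 15 largest rises, the 15 largest falls and the 10 most abundant raised genes, with limma standard errors as bars and equality as a dashed line. Rises lie near the line in both panels, and on the right several falls lie off it, the farthest being ZNF232-AS1 (-1.62 at 12 h, -0.31 at 8 h), TNFRSF10D (-1.96 and -3.04) and ACO1 (-2.13 and -1.29). On the left the falls farthest from it are ZNF232-AS1 (-1.62 in siBOP1, -0.98 in siFLuc cells) and NT5DC2 (-2.25 and -1.67).

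Sequence features of the classes were also described. The share of G or C at the third codon position (GC3) had a median of 62.1% in protein-coding genes higher by at least 1 and of 58.2% in genes that did not pass. Genes lower by at least 1 had a median of 54.0%, and those with smaller falls 60.5%. Coding length was shorter among lowered genes, with medians of 1161 bases (falls of at least 1) and 1164 bases (smaller falls) against 1434 bases in genes that did not pass and 1461 bases in genes higher by at least 1. The median mock level, which is part of the fold change and of the rule for members, was 5.55 TPM in genes higher by at least 1, 16.8 TPM in genes lower by at least 1 and 13.6 TPM in genes that did not pass. These are descriptions without a test, and GC3, length and level are not independent of each other.

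Genes higher by at least 1 lay in neighbouring positions in several places (GENCODE 29 on GRCh38, gaps of at most 100000 bases). Each stretch was drawn from the first to the last of a run of at least 4 such genes. The share of raised genes inside it is therefore set largely by that rule and is no result, beside 3.5% of all genes. Not every run is printed. In the class II region of chromosome 6 (chr6:32813767-32859585), 6 of 6 described genes rose by at least 1, among them TAP1, TAP2, PSMB8 and PSMB9. The GBP cluster on chromosome 1 (chr1:89006666-89272804) had 5 of 6, and the IFIT cluster with LIPA on chromosome 10 (chr10:89213569-89421001) 5 of 5. On chromosome 14 (chr14:24136158-24180257) 5 of 8 genes, including PSME1, PSME2, RNF31, IRF9 and REC8, rose by at least 1. On chromosome 22 (chr22:50523568-50613981) 6 of 11 did, among them SCO2, TYMP and ODF3B. Genes that overlap or share reads could be counted more than once in such clusters.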

How the data were processed

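The deposited values are TPM made by the authors, 60609 gene rows by 24 columns that each sum to 1000000. The quantification tool and genome build are not given in the sources used here. Ensembl gene IDs were paired with symbols from a reference table (60340 rows named), positions and coding sequences from GENCODE 29 on GRCh38 (58502 row IDs, 41747 with the same version), and promoters from RefSeq. Columns were matched to groups by name. The 8 columns numbered 4, a number the labels do not give, entered the fits by group alone. The labels do not say that replicates were separate cultures, so p-values measure the spread between these libraries, which may be technical.

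All 16062 genes that reached 1 TPM in 3 or more of the 24 libraries were fitted on log2(TPM + 1) values by limma (version 3.58.1, R 4.3.3, trended eBayes, 1 mean per group, no block), and p-values were adjusted by Benjamini-Hochberg over them. Adjusted p under 0.05 was called. Same-numbered libraries of both arms deviated together across genes (r = 0.228, 0.137 and 0.414 for numbers 1, 2 and 4), so a fit blocked on that number was also run. Calls of printed genes that it changes are given, and so are many of the list counts. A list printed without a block count may still change with it. Without the libraries numbered 4, r for numbers 1 and 2 was -0.01. BOP1 was also compared by an exact permutation test.

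Members and the 51 gene lists (982 genes, 908 described) were chosen with earlier results of these data known. Named genes are BOP1, the 15 largest rises and falls among called genes with at least 5 TPM in the higher group and no overlap, the 10 most abundant raised genes, the 8 smallest p of each interaction, and, per list, the 5 largest changes and 3 highest levels. Not every gene the rule gives is printed. LIPA, PSME1, RNF31, REC8, SCO2, TYMP and ODF3B were named after their values were seen. Alternatives were another pseudocount, filter, scaling, trend, set of groups, adjustment and block, the libraries numbered 1 and 2 alone, and leaving out each library.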

Additional observations from a re-analysis of the deposited data

How the results depend on the processing

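None of the 1105 raised and 1199 lowered genes changed sign in an alternative run that kept the gene. Another filter, trend, set of groups, adjustment or block leaves the fold change as it is. Sign was therefore open to change only with another pseudocount or scaling, or with libraries left out. With the replicate block on the column number, which pairs same-numbered libraries, 1754 genes were higher and 2624 lower, and 4 genes passed the time by IFN interaction; no call of a named gene was lost with it, and the calls it added stand beside their genes. A fit of only the groups compared gave 661 lower genes. By at least 1, 182 genes were lower with a pseudocount of 0.1 and 147 with the libraries numbered 1 and 2 alone. The time by IFN interaction passed in 1 gene with values above 0 in 3 libraries as the filter and in 1 without the intensity trend. Leaving out each library in turn gave 846 to 1086 higher and 659 to 1431 lower genes, and 471 to 545 higher and 82 to 132 lower by at least 1. The count of lower genes was 702 without IFN library 1, 659 without IFN library 2 and 780 without mock library 2, and lower by at least 1 it was 132 without the IFN library numbered 4. The siRNA by IFN interaction stayed at 0 genes throughout. Of 162 named genes that passed, 21 lost the call when a single library was left out and 27 did in at least 1 other alternative, among the latter KYNU under quantile normalization, SNHG5 with the libraries numbered 1 and 2 alone and TP53I3 in the fit of only the groups compared (limma adjusted p = 0.0717, 0.0538 and 0.0598). Values under the threshold changed sign in a few genes. Median-of-ratios rescaling gave 0.031 for PES1, 0.031 for RPL41 and 0.018 for RPS19, quantile normalization gave -0.058 for CANX, and the libraries numbered 1 and 2 alone gave 0.079 for RPS19. Leaving out each library in turn gave -0.13 to 0.028 for PES1, -0.10 to 0.011 for RPL41, -0.14 to 0.025 for RPS19 and -0.41 to 1.16 for GDF15. The sign of GDF15 changed without the IFN library numbered 4 (-0.41), mock library 1 (-0.22) or mock library 2 (-0.11). The causes of these shifts were not tested. Library depth is unknown, so its limit on low genes cannot be given.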
